A study of Homo sapiens with 4 samples.

Results

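The mRNAs of 6 channel genes, the connexins GJA1, GJB2, GJC1 and GJA3 and the pannexins PANX1 and PANX2, were followed in RNA recovered with an antibody against YTHDF3 and in input RNA. They were picked out by gene symbol among 36203 genes in the table, and the choice was made with earlier results of these data known. YTHDF3 reads N6-methyladenosine (m6A), a mark on mRNA bases, in the cytoplasm and is known to promote translation of marked mRNA. RNA immunoprecipitation with sequencing (RIP-seq) sets the RNA retained with a protein beside input, the RNA before that step. There were 2 YTHDF3 RIP libraries (antibody of Santa Cruz Biotechnology) and 2 input libraries, with no other treatment named. All 4 came from a human breast cancer line that the sample labels call MDA-MB-231 and the growth text calls MDA-MB-231Br, its derivative selected for growth in the brain. The protocol text speaks of embryos and of an m6A antibody, so which extraction was followed is not settled. The study's title concerns YTHDF3 and m6A-carrying transcripts in breast cancer brain metastasis. No RIP with a control antibody was analysed here, so binding to YTHDF3 and other retention of RNA cannot be told apart.

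Connexins assemble into hemichannels that dock between neighbouring cells as gap junctions and pass ions and small molecules. Carcinoma cells in the brain are known to couple to astrocytes through connexin 43, the product of GJA1, and to pass the second messenger cGAMP to them. GJB2 encodes connexin 26, a junction protein of epithelia and of the inner ear, GJA3 a connexin of the eye lens, and GJC1 connexin 45 of the heart and vessels. Pannexins resemble connexins in the membrane but mostly act as channels of a single cell. PANX1 is a route of ATP release that caspases open in dying cells, and PANX2 is best known from the nervous system.

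The transcripts of the connexins were built alike, and those of the pannexins differently. In GENCODE 29 on GRCh38, all 4 connexin members keep their coding region within 1 exon, against 5.95% of the 10852 protein-coding genes tested. Their last exon made up 91.9% of the representative GJA1 transcript of 3152 bases, 90.3% of GJB2, 96.9% of GJA3 and 96.7% of GJC1. The coding region is spread over 5 exons in PANX1 and 3 in PANX2, and the last exon held 42.7% and 44.6% of their transcripts. The letters GGACT, the commonest core of the m6A consensus, were searched on the transcript strand, where matches cannot overlap. They occurred 3 times in GJA1, 2 in GJB2, 5 in GJA3, 8 in GJC1, 2 in PANX2 and 1 in PANX1, and at least once in 90.9% of all tested transcripts. Among tested transcripts within 10% of the length of GJA1, 94.0% held the letters, and 92.1% of those near the length of PANX1. A match shows only that the letters are present, and methylation was not measured in these libraries.

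The matches below are shown because they lie in the pair of mRNAs that passed the test and in GJB2, the most abundant of the others. Each is given 5′ to 3′ with 10 flanking bases and the motif in capitals, on GRCh38.
GJA1 coding region, chr6:121447425-121447449, plus strand: cacatcaggtGGACTgtttcctctc
GJA1 3′ untranslated region, chr6:121448530-121448554, plus strand: aggtgtcaatGGACTtgtgctacta
GJA1 3′ untranslated region, chr6:121449229-121449253, plus strand: tgcttagagtGGACTattaaatgtg
PANX1 5′ untranslated region, chr11:94129027-94129051, plus strand: cgcggcccggGGACTtgcacgggcg
GJB2 coding region, chr13:20189034-20189058, minus strand: ccaacactgtGGACTgctttgtgtc
GJB2 3′ untranslated region, chr13:20187830-20187854, minus strand: tggaaagactGGACTctaaagtctg
The match in PANX1 is the only one in that transcript and lies before its coding region, so none lies in its coding region or 3′ untranslated region.

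The coding match of GJA1 sat at the same place of the connexin reading frame as one in GJB2 and one in GJA3. The third is shown to let them be compared.
GJA3 coding region, chr13:20142705-20142729, minus strand: ccaacacggtGGACTgcttcatctc
In pairwise alignments of the coding regions, these 3 matches fell in the same columns. The 25-base windows shared 21 bases between GJB2 and GJA3, 18 between GJA1 and GJA3 and 15 between GJA1 and GJB2, while whole coding regions were 63.3% to 67.8% identical. The common 8 letters, GTGGACTG, were found in the coding region of 9 of 18 connexin genes analysed, read on the transcript strand and of 5.03% of the protein-coding genes tested. This longer motif was chosen after the windows were seen, and connexin genes are related by descent, so they are not independent cases. GJC1, PANX1 and PANX2 lack it in their coding regions.

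**Figure D1:**
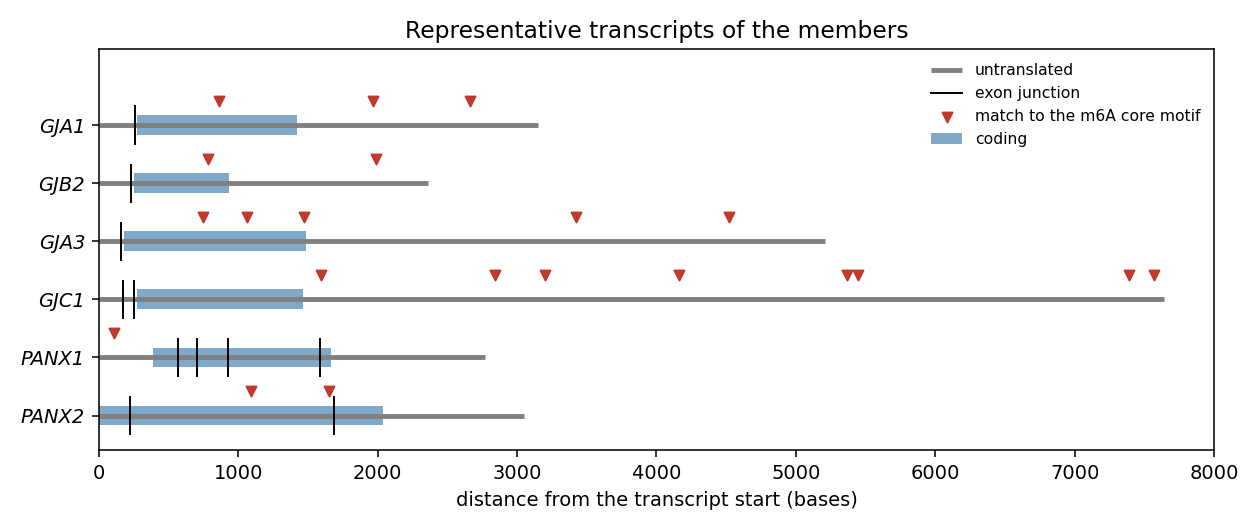
Representative transcripts of the 6 members to scale, in bases from the transcript start, with coding regions as boxes, exon junctions as black ticks and the GGACT matches as red triangles. In the 4 connexins every junction lies before the coding region, whereas PANX1 has 5 coding exons and PANX2 has 3.

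The libraries differed in depth, and RIP 2 had an excess on chromosomes 1 and 10. Levels are in FPKM, fragments scaled to exon length and to the library's mapped total, so each is a share of its own library. When FPKM values were added up without weighting by exon length, protein-coding genes contributed 92.7% in RIP 1 and 94.9% in RIP 2. Their contribution was 46.1% in input 1 and 46.3% in input 2, and these are not shares of reads. With the commonest low value taken as 1 read, relative depth was about 10378254 reads in RIP 1, 3105060 in RIP 2, 6143571 in input 1 and 7310962 in input 2, as an estimate from the values. Chromosome 1 held 35.9% of the length-weighted signal of RIP 2, against 9.2% to 10.6% in the other 3 libraries, and chromosome 10 held 6.89%, against 3.56% to 3.99%. No member lies on either chromosome. On the chromosomes of the members, RIP 2 differed from RIP 1 by a median of -0.80 to -0.34 on the log2 scale. All 5 markers of the line were present, and 0 were called higher and 1 lower. That one was KRT18, with 26.5 and 19.6 FPKM in RIP and 74.0 and 97.2 FPKM in input (limma, adjusted p = 0.0264). KRT8 had 13.9 and 14.5 FPKM in RIP and 31.7 and 52.4 FPKM in input, and CD44 had 256 and 161 FPKM in RIP and 359 and 489 FPKM in input. VIM had 294 and 1258 FPKM in RIP and 727 and 1322 FPKM in input, and EGFR had 362 and 221 FPKM in RIP and 147 and 75.3 FPKM in input. The luminal marker ESR1 and the embryo markers NANOG and LIN28A were listed at 0 in every library. Of 4 luminal markers 3 were above 0, and their summed level was 57.1 and 21.6 FPKM in RIP and 5.88 and 5.30 FPKM in input, nearly all of it FOXA1. FOXA1 was the only luminal marker tested, and it was called higher (log2 difference 2.49, limma, adjusted p = 0.0226). SOX2 and POU5F1, the other embryo markers, summed to 1.28 and 0.897 FPKM in RIP and 0.194 and 0.272 FPKM in input. Of the astrocyte markers, GFAP and AQP4 were listed at 0 in every library. SLC1A3 had 3.84 and 6.93 FPKM in RIP and 1.60 and 3.45 FPKM in input (limma, adjusted p = 0.220). The part of these markers in the results was not tested, and in bulk RNA fewer cells of a type and less RNA per cell cannot be told apart. YTHDF3 mRNA itself had 75.8 and 72.4 FPKM in RIP and 10.3 and 13.8 FPKM in input.

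GJA1 and PANX1, the most abundant connexin and pannexin among the members, were the 2 of 5 members tested that passed, both with higher levels in YTHDF3 RIP, and none was lower. Of all genes tested, 15.4% were higher and 24.3% lower. GJA1 (chromosome 6, 121435577 to 121449727) had 46.6 and 55.2 FPKM in RIP, compared with 11.7 and 14.8 FPKM in input. The groups lay far apart, and in both the second library was the higher. The mean was 50.9 ± 6.03 FPKM in RIP and 13.3 ± 2.14 FPKM in input (SD, n = 2 each), a ratio of 3.84. On the log2(FPKM + 1) scale the difference was 1.87 (SE 0.45; limma, adjusted p = 0.0234, Benjamini-Hochberg over all genes tested). PANX1 (chromosome 11, 94128928 to 94181972) had 165 and 81.6 FPKM in RIP, compared with 31.3 and 19.6 FPKM in input. Here the first library was the higher in both groups, and the lower RIP value was still above the higher input. The mean was 123 ± 58.9 FPKM in RIP and 25.4 ± 8.31 FPKM in input (SD, n = 2 each), a ratio of 4.84. The log2 difference was 2.18 (SE 0.56; limma, adjusted p = 0.0269). Nothing in the labels tells whether a group's libraries were grown as separate cultures, so the p-values measure only the spread between libraries. Both calls, like those of all genes named here, were lost when either input was left out (limma, adjusted p = 0.205 to 0.282 for these). With no filter on low values PANX1 was lost as well (adjusted p = 0.0561).

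The 3 other members tested, GJB2, GJA3 and PANX2, had RIP values above both inputs without passing over all genes. GJB2 (chromosome 13, 20187463 to 20193010) had 8.48 and 4.59 FPKM in RIP and 1.97 and 1.48 FPKM in input. The mean was 6.53 ± 2.75 FPKM in RIP and 1.73 ± 0.347 FPKM in input (SD, n = 2 each), and its log2 difference of 1.42 (SE 0.49) missed the threshold (limma, adjusted p = 0.0588). GJA3, its neighbour on chromosome 13 (20138255 to 20161049), had 6.18 and 3.40 FPKM in RIP and 2.02 and 1.23 FPKM in input. The log2 difference of GJA3 was the smaller of the pair, at 1.11 (SE 0.48, adjusted p = 0.101). PANX2 (chromosome 22, 50170731 to 50180294) had 3.03 and 1.27 FPKM in RIP and 0.692 and 0.268 FPKM in input. Without a pseudocount its mean was 4.47 times that of input, more than for GJA1 at 3.84 times, GJB2 at 3.79 times or GJA3 at 2.95 times. On the log2(FPKM + 1) scale, which understates changes of low genes, PANX2 had the smallest value of the 5, 1.04 (SE 0.41, adjusted p = 0.0799). PANX2 passed the filter of 1 FPKM in 2 libraries only through its RIP values. Without RIP 2, where 27.4% of genes were higher, all 3 passed, whereas without RIP 1 none of them did. The log2 differences without RIP 2 were 1.80 for GJB2, 1.47 for GJA3 and 1.46 for PANX2. Without RIP 1 they were 1.04 for GJB2, 0.76 for GJA3 and 0.63 for PANX2. Either fit leaves a single RIP library, which is assumed to vary like the inputs, so neither outcome settles the calls of these 3 genes. Under a median scaling outside chromosomes 1 and 10, with 17.4% of genes higher, GJB2 alone of them passed (adjusted p = 0.033).

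GJC1 (chromosome 17, 44798448 to 44830816) lay below the filter in all libraries and was not tested. It had 0.12 and 0.0843 FPKM in RIP, 0.0573 FPKM in input 2 and a listed 0 in input 1. These levels are given as values, with no comparison between RIP and input.

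The order of levels was close to the same in RIP and in input. PANX1 came first and GJA1 second in each of the 4 libraries, and the groups of values of these genes did not overlap within RIP or within input. GJB2 and GJA3 followed at levels that overlapped within RIP and within input, with GJA3 above GJB2 in input 1 and below it in the other 3 libraries. PANX2 came next and GJC1 last in each library. The value in RIP 2 was below that in RIP 1 for PANX1, GJB2, GJA3, PANX2 and GJC1, and above it for GJA1. On the log2 scale RIP 2 differed from RIP 1 by -1.01 for PANX1, -0.83 for PANX2, -0.76 for GJB2, -0.71 for GJA3 and 0.24 for GJA1.

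**Figure D2:**
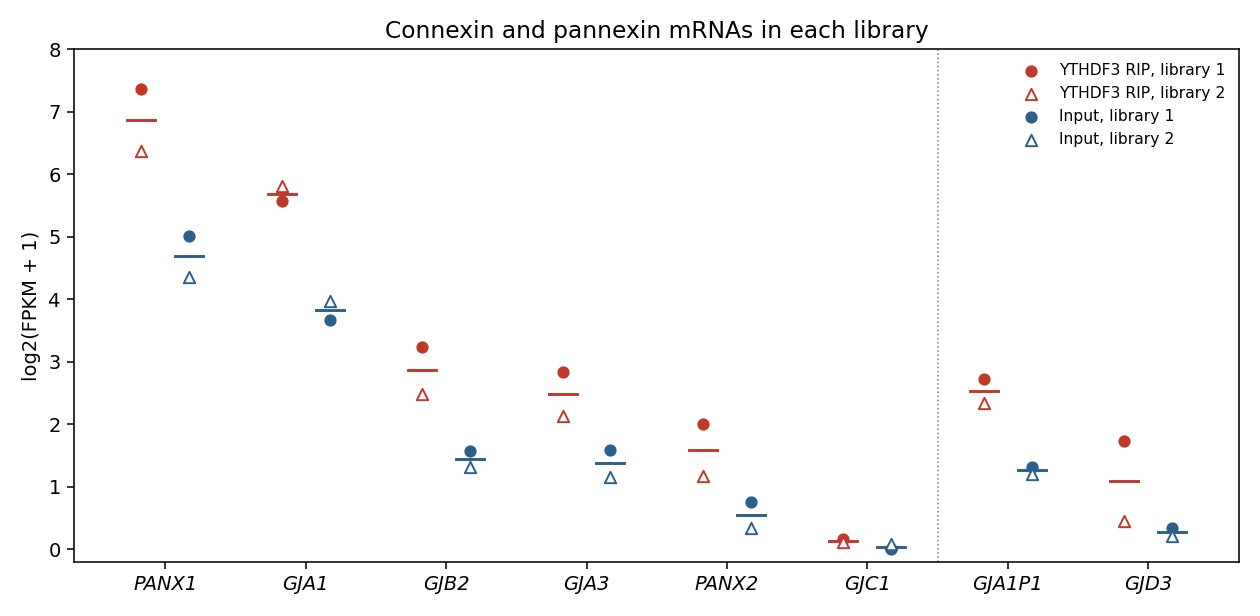
Levels on the log2(FPKM + 1) scale in each library, YTHDF3 RIP in red to the left of input in blue, with library 1 as filled circles, library 2 as open triangles and a bar at the mean of the 2. The 6 members stand left of the dotted line, and for PANX1, GJA1, GJB2, GJA3 and PANX2 both RIP libraries lie above both inputs. To the right are GJA1P1 and GJD3, whose RIP libraries are far apart at 2.33 and 0.364 FPKM.

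These differences were set against all 12848 genes tested. Taking limma's p before adjustment, 4 of the members were under 0.05, all higher. By the same measure 2979 of the 12848 genes were higher and 3839 lower. Both RIP libraries lay above both inputs in 35.7% of genes tested and below them in 40.1%, against 5 and 0 of the members tested. The median log2 difference of the 5 was 1.42, against -0.10 over all genes tested. With PANX2 present only through its RIP values, neither this median nor the counts are independent of the filter. PANX1 stood at the 93.0 percentile of all log2 differences, GJA1 at 88.7, GJB2 at 79.96, GJA3 at 73.4 and PANX2 at 71.8. Among all tested genes whose coding region lies in 1 exon, as in the connexins, 44.1% of 646 were called higher, against 15% of 10206 genes with more coding exons. The call for GJA1 thus falls in a class of genes where such calls were common, and PANX1 in the class where they were less so. The difference between these classes was not tested.

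**Figure D3:**
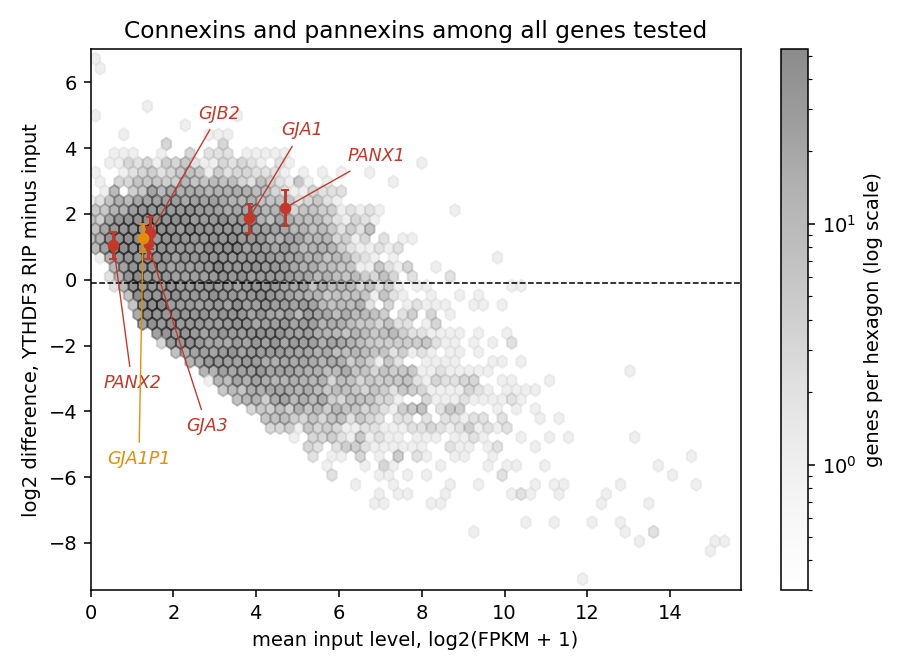
Log2 difference of YTHDF3 RIP from input against mean input level, both on the log2(FPKM + 1) scale, for the 12848 genes tested (grey hexagons), with the 5 members tested in red, GJA1P1 in orange, bars of 1 SE and the median of all genes (-0.10) as a dashed line. All named genes lie above the median, and the input values enter both axes.

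GJA1 has a near-identical processed pseudogene, GJA1P1 on chromosome 5 (109051315 to 109052457), to which its reads could be assigned. The alignment ran from the first coding base of GJA1 to the base before its stop codon, with 1 gap. Over its 1143 aligned bases the copies differed at 34 bases (97.0% identity). Of the 50-base windows of GJA1P1, 17.8% occurred unchanged in GJA1. The 60 coding bases with the most differences are shown to make the resemblance visible, with the differing bases in capitals.
GJA1: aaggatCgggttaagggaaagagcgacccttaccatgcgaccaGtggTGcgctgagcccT
GJA1P1: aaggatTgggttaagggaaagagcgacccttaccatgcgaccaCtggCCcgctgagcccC
Counted from 1 at the first coding base of GJA1, with the base of GJA1 first, the differences are C715T, G752C, T756C, G757C and T768C. GJA1P1 had 5.64 and 4.06 FPKM in RIP, compared with 1.495 and 1.31 FPKM in input, and both RIP libraries lay above both inputs. Its log2 difference was 1.27 (SE 0.43, adjusted p = 0.0546), in the same direction as that of GJA1, while 3.43% of the 1109 processed pseudogenes tested were called higher. When the signal of GJA1P1 was given to GJA1, the log2 difference of GJA1 was 1.86 (adjusted p = 0.0232). The 2 copies could not be separated further with values per gene.

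Most of the other connexin and pannexin genes had no signal in any library. Of 15 analysed, 11 were listed at 0 in all 4 libraries, among them GJA4 and GJA5, connexins of vessel walls, GJB1, the connexin of liver and myelin, GJB6, which lies beside GJB2, and GJD2, the main connexin of neurons. The other 4 were above 0 in at least 1 library but too low to be tested. Of these, GJD3 had 2.33 and 0.364 FPKM in RIP and 0.272 and 0.155 FPKM in input, and an antisense gene shares 733 of its exon bases. PANX3 had 0.276 FPKM in RIP 1, 0.195 FPKM in input 1 and 0 in the others. GJB5 was above 0 only in RIP 1, at 0.134 FPKM, and GJA9 in both RIP libraries, at 0.101 and 0.339 FPKM. Both genes lie on chromosome 1, where RIP 2 had an excess. GJA9 shares 1899 exon bases with a readthrough gene on the same strand and 286 with an antisense gene, so its own level is uncertain.

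Genes for the partners, kinases and turnover of connexin 43 had no common direction. Of 32 in the table, 30 were tested, 3 were higher in RIP and 3 lower, and the median log2 difference was 0.02. Over all genes tested, 15.4% were higher and 24.3% lower. Those higher were CNST, MAPK7 and CSNK1D. CNST, which encodes consortin, a receptor that helps carry connexins to the cell surface, lies on chromosome 1 and had 104 and 139 FPKM in RIP, compared with 17.9 and 15.9 FPKM in input. Its log2 difference was 2.76 (SE 0.46, adjusted p = 0.0107). MAPK7, the kinase ERK5, which phosphorylates connexin 43, had 82.0 and 19.2 FPKM in RIP and 6.03 and 1.56 FPKM in input (3.27, SE 0.83, adjusted p = 0.027). The MAPK7 libraries were far apart within each group. CSNK1D, a casein kinase that also acts on connexin 43, had 57.7 and 56.2 FPKM in RIP and 13.7 and 22.5 FPKM in input (1.64, adjusted p = 0.0376). CSNK1D and MAPK7 share exon bases with genes on the other strand, as do TSG101, YES1, TBK1, P2RY11, ENTPD1 and CALHM2 among those that follow. On the same strand, TSG101 shares 126 exon bases with a processed pseudogene, and ENTPD1 shares 173 with another protein-coding gene. The kit kept strand, but whether the authors' counting used it is not stated.

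Those lower in this list were CDK1, YES1 and TSG101. CDK1, the mitotic kinase, on chromosome 10, had 4.99 and 13.2 FPKM in RIP, compared with 52.1 and 71.7 FPKM in input (log2 difference -2.75, SE 0.57, adjusted p = 0.0165). YES1, a kinase related to SRC, had 10.5 and 13.7 FPKM in RIP and 49.1 and 43.6 FPKM in input (-1.87, adjusted p = 0.0236). TSG101, of the sorting machinery that sends connexin 43 to lysosomes, had 8.48 and 7.53 FPKM in RIP and 24.2 and 36.3 FPKM in input (-1.77, adjusted p = 0.031). These 3 calls were lost after rescaling to TPM, which put the median of all genes at 0.96 on the log2 scale, and counts were then 10 higher and 0 lower, with 33.8% of all genes higher and 10.5% lower. After quantile normalization, with 24% of genes higher and 2831 of 12848 lower, 6 of the list were higher and 4 lower. With no filter, where 3.88% of genes were higher, CNST alone remained higher, and TSG101 was no longer called (adjusted p = 0.0511). Without RIP 1, which leaves a single RIP library, the log2 differences were 2.97 for CNST, 2.25 for MAPK7 and 1.62 for CSNK1D. They were -2.13 for CDK1, -1.69 for YES1 and -1.84 for TSG101. TJP1, the scaffold ZO-1 that binds the tail of connexin 43, had 16.5 and 14.6 FPKM in RIP, within the 10.3 and 21.5 FPKM of input. The cadherin genes CDH1 and CDH2 were listed at 0 in all 4 libraries.

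Around the astrocyte junction, PCDH7, a protocadherin known to promote junctions between carcinoma cells and astrocytes, had 11.2 and 2.48 FPKM in RIP and 1.24 and 0.947 FPKM in input. Its log2 difference of 1.64 (SE 0.65) did not pass (adjusted p = 0.0848). TBK1, a kinase downstream of cGAMP sensing, was the 1 gene of 5 tested that was called, as lower, with 0.503 and 0.391 FPKM in RIP and 11.1 and 11.3 FPKM in input (log2 difference -3.07, SE 0.43, adjusted p = 0.00885). TBK1 passed the filter only through its input values, and an antisense gene shares 702 of its exon bases. Over all genes tested, 15.4% were higher and 24.3% lower. None of the 5 was higher, but 1 was, PCDH7, after quantile normalization or without RIP 2, and 2 were, PCDH7 and TMEM173, after rescaling to TPM.

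Of 28 genes for caspases that act on pannexins and for signalling by the ATP that they release, 12 were tested. Of these 4 were higher and 0 lower, against 15.4% and 24.3% of all genes tested. The median log2 difference of the 12 was 0.54. Of the genes called, ENTPD1 had both inputs under 1 FPKM, and P2RY2 and P2RY11 had 1 input under it, so these 3 passed the filter with the help of their RIP values and the count is not independent of it. ADORA2B, a receptor for adenosine, had 385 and 141 FPKM in RIP, compared with 35.4 and 24.7 FPKM in input (log2 difference 2.93, SE 0.63, adjusted p = 0.0174). P2RY2, a receptor for ATP and UTP, had 11.99 and 4.36 FPKM in RIP and 1.41 and 0.668 FPKM in input (2.06, adjusted p = 0.034). ENTPD1, an enzyme that breaks down extracellular ATP, had 4.03 and 3.95 FPKM in RIP and 0.805 and 0.976 FPKM in input (1.40, adjusted p = 0.032), and lies on chromosome 10. P2RY11 had 12.7 and 11.3 FPKM in RIP and 0.699 and 3.03 FPKM in input (2.31, adjusted p = 0.026), and shares 1148 exon bases with a readthrough gene, so its own level is uncertain. Except for ADORA2B, these calls were lost with no filter on low values, and ENTPD1 also with a pseudocount of 0.1 (adjusted p = 0.0525). P2RX7, the ATP-gated channel often coupled to PANX1, was listed above 0 only in RIP 1, at 0.0538 FPKM. Among the CALHM genes, which encode other large-pore channels that release ATP, CALHM2, on chromosome 10, was the 1 tested of 6 in the table. CALHM2 had 37.1 and 34.6 FPKM in RIP, compared with 4.46 and 8.01 FPKM in input (log2 difference 2.39, SE 0.49, adjusted p = 0.0161).

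**Figure D4:**
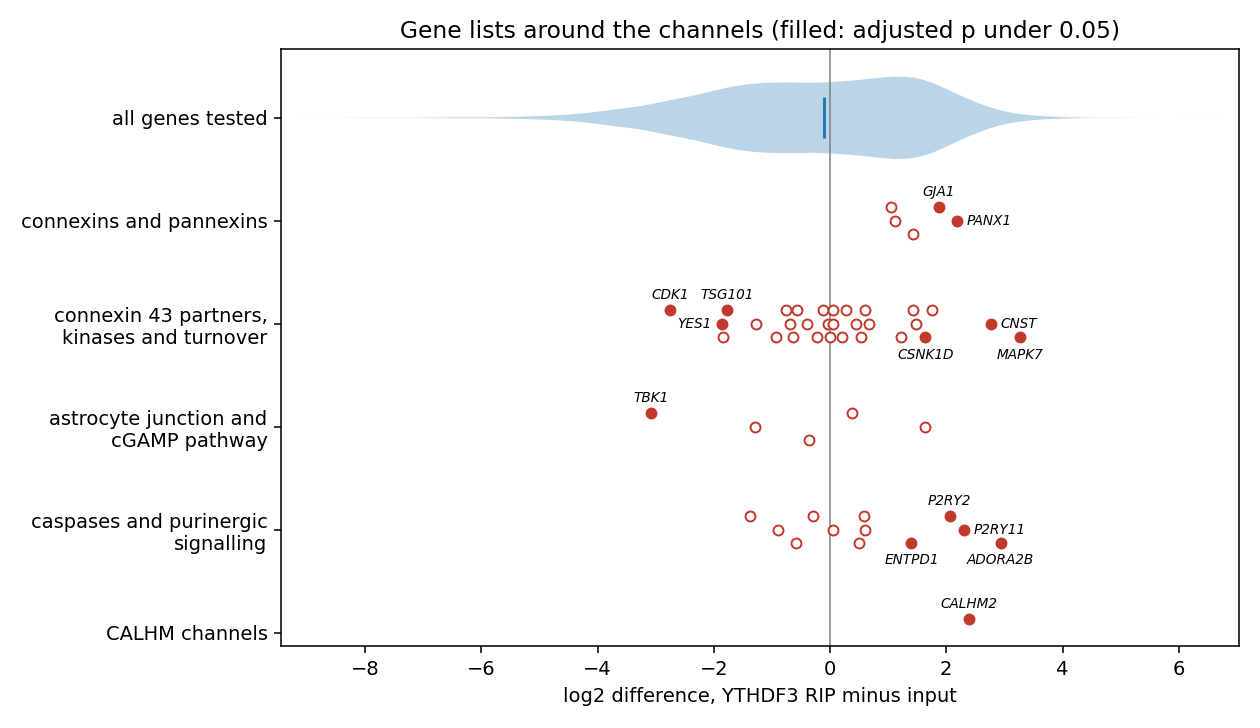
Log2 difference of YTHDF3 RIP from input on the log2(FPKM + 1) scale for the genes tested in each list (points, filled at an adjusted p under 0.05) and for all 12848 genes tested (shape, with the median at -0.10). The connexin and pannexin points all lie above 1, whereas the 30 tested partners of connexin 43 lie on both sides of 0, with 3 calls each way.

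The genes with the pattern most like that of each member were found by Euclidean distance over the 4 libraries on the log2(FPKM + 1) scale, among protein-coding genes tested. The 3 nearest to GJA1 were AFF1 (distance 0.32), C12orf65 (0.32) and BYSL (0.36). For PANX1 they were TOR1B (0.30), LAYN (0.37) and SSFA2 (0.40). TOR1B had 170 and 79.99 FPKM in RIP and 27.7 and 16.4 FPKM in input, close to PANX1 in each library. DDX51 (0.16), BAHD1 (0.23) and ZNF619 (0.27) were nearest to GJB2, and ZDBF2 (0.21), C22orf39 (0.24) and CPQ (0.26) to GJA3. HAS3, C3orf80 and AGAP2 (0.20, 0.20 and 0.21) were nearest to PANX2. HAS3 was called higher at an adjusted p = 0.0483, with 2.83 and 1.52 FPKM in RIP and 0.574 and 0.259 FPKM in input, and it passed the filter only through its RIP values.

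**Figure D5:**
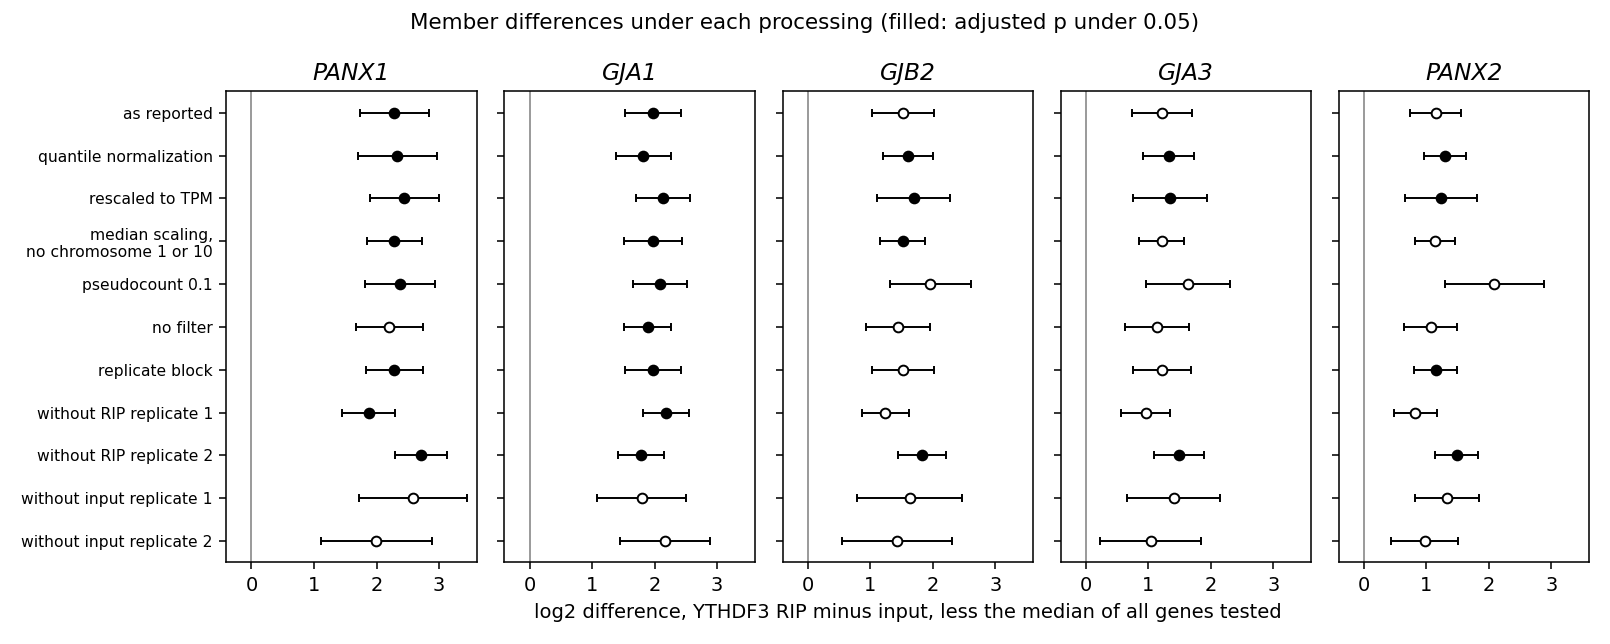
Log2 difference of YTHDF3 RIP from input, less the median of all genes tested, with bars of 1 SE, for the 5 members tested under the reported processing and 10 alternatives, filled at an adjusted p under 0.05. Every value lies above 0, GJA1 is filled in all but the fits without an input library, and GJA3 is filled in 3 of the alternatives.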

How the data were processed

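The authors deposited a table with 1 value for each gene in each library, whose unit is not named. From the values it was taken as FPKM: the deposited FPKM sums differed (301226 and 301483 in RIP, 700141 and 690869 in input) and came close after multiplication by exon length. Per the submitters' processing notes, HISAT2 and GRCh38 (hg38) were used. For counting program, annotation and strand, the answer is not given in the sources used here. Only 29.7% to 32.1% of low values came out as whole reads within 0.03, so no count test was run and no counting interval is given.

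After 14 repeated identifiers were dropped, the 12848 genes reaching 1 FPKM in 2 or more libraries were tested on log2(FPKM + 1) with limma 3.58.1 in R 4.3.3 (empirical Bayes, mean-variance trend), RIP minus input, with no block. Tests were two-sided, with Benjamini-Hochberg adjustment over all genes tested and a threshold of 0.05. The test was first checked on simulated data with large planted changes and independent noise. That check does not cover the chromosome excess of RIP 2. Libraries were grouped by title and numbered in accession order.

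Transcripts and positions came from GENCODE 29, with 1 basic transcript per gene (longest coding region). Named are all members, other connexins and pannexins above 0, up to 8 called genes per list by p, and the 3 nearest patterns per member. YTHDF3, markers, GJA4, GJA5, GJB1, GJB6, GJD2, TMEM173, TJP1, CDH1, CDH2, PCDH7 and P2RX7 were named outside this rule for their roles, and GJA1P1 after its values were seen. Some genes of the family are not reported here. The members and lists were chosen with earlier results of these data known. Alternatives covered scaling, pseudocount, filter, variance model, a block by title suffix and each library left out.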

Additional observations from a re-analysis of the deposited data

How the results depend on the processing

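With only 2 libraries a group, each library carries much weight, and the log2 differences of all 5 members tested stayed above 0 under every alternative run. Without either input no gene passed in limma (before adjustment, p was under 0.05 for 737 higher and 2299 lower genes when input 1 was left out, and for 608 and 2257 when input 2 was). The single library left is then assumed to vary like the other group. With each library left out in turn, genes higher ranged from 0 to 3515, genes lower from 0 to 3933, and members higher from 0 to 5. The log2 differences then ranged from 1.71 to 2.02 for GJA1, 1.04 to 1.80 for GJB2, 0.76 to 1.47 for GJA3, 1.68 to 2.68 for PANX1 and 0.63 to 1.46 for PANX2.

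After quantile normalization 3085 genes were higher, with 5 members among them (GJB2 1.73, GJA3 1.45, PANX2 1.43). Rescaling to TPM gave 4727 higher and 1469 lower, again with 5 members (GJB2 2.65, GJA3 2.31, PANX2 2.19). It also moved the median of all genes from -0.10 to 0.96. Higher calls made up 38.8% of calls on the deposited values, 52.1% after quantile normalization and 76.3% after TPM. Less the median of all genes, GJA1 was at 1.97 on the deposited values, 1.82 after quantile normalization and 2.13 after TPM. Under median scaling outside chromosomes 1 and 10, GJB2 also passed (1.41). With no filter 718 genes were higher, 1 of them a member (GJA1), and PANX1 missed (2.18, adjusted p = 0.0561). A pseudocount of 0.1 or no mean-variance trend changed no call among the members. Where calls moved, the cause was not tested.

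A title suffix is shared by one RIP and one input library. Deviations of same-suffix libraries correlated with r = 0.214 over genes, with only a pair of suffixes and no stated meaning. With the suffix as a replicate block, 2477 genes were higher and 3466 lower, and PANX2 also passed (1.04, adjusted p = 0.0475). In the lists it gave 5 connexin 43 partners higher, 1 astrocyte junction gene higher and 1 purinergic or caspase gene lower. Counts of genes lower in the lists also moved when a RIP library was left out, and such a fit leaves a single RIP library. GJC1 lay below the filter in every library, and RIP 2 had the lowest depth by the estimate from the values. How far depth limits what can be seen of the low connexins was not tested.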

Other observations

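Across the 10852 protein-coding genes tested, transcripts called higher in YTHDF3 RIP had longer last exons than those called lower, with a median of 2206 bases against 666 bases and 1398 bases over all. Spearman's rho between the log2 difference and the last exon's length was 0.34, and 0.36 with transcript length. It was -0.45 with the mean input level, where the input values enter both measures, and -0.09 with the number of coding exons. For the number of GGACT matches rho was 0.36, and per kilobase of transcript it was 0.14. These describe correlations across genes, which share libraries and are not independent replicates. Of the members, GJC1 and GJA3 had last exons longer than those of 97.4% and 92.3% of these genes, and GJA1, GJB2, PANX2 and PANX1 longer than 76.8%, 65.4%, 49.2% and 44.5%. PANX1, with the shortest last exon, had the largest log2(FPKM + 1) difference of the 5 tested. That scale understates changes of low genes. By ratio of means PANX1 was also first, at 4.84, but PANX2 came next at 4.47, before GJA1 at 3.84. The relation of last exon length to the differences of the members was not tested.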
